A study of Mus musculus with 14 samples.

Results

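The 9 genes of skin antimicrobial defence described here are the beta-defensins Defb1, Defb3, Defb4, Defb6 and Defb14, the protease inhibitor Slpi, the siderophore-binding protein Lcn2, the cathelicidin Camp and the iron-binding protein Ltf. They were taken by symbol, and all 9 were among the 24035 genes listed in the deposited table. In 8 of them expression was high enough to be tested, and Ltf fell below the filter of at least 1 TPM in at least 3 samples. Defb3 and Defb4 passed that filter through croton oil ears alone, since every vehicle ear had less than 1 TPM of each, so a call for these genes after croton oil was partly built into the filter. Camp reached 1 TPM in LC-DTA ears alone, so a call between genotypes was partly built in for Camp in the same way.

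The tissue was whole mouse ear, profiled by mRNA sequencing, in a series whose title concerns mast cell homeostasis. Transcript levels are in TPM, a unit of relative transcript abundance that divides by transcript length and by the total of the sample, so that levels can be compared between genes. Croton oil is a skin irritant that contains phorbol esters, activators of protein kinase C. The ears had been painted on either side with 20 µl of 1% croton oil in vehicle, or of vehicle alone, and were taken 6 h later. Vehicle was acetone and olive oil in a ratio of 4 to 1. Langerhans cells are dendritic cells that reside in the epidermis. LC-DTA mice were a line with long-term ablation of these cells, and in LC-DTR mice ablation was short-term, by diphtheria toxin given 3 days before. The croton oil groups held 4 LC-DTA and 4 LC-DTR samples, and the vehicle groups 3 LC-DTA and 3 LC-DTR samples. By the labels all 4 groups had been depleted of Langerhans cells, and no ear with intact Langerhans cells and no unpainted ear was analysed here. The labels name neither the promoter that drives the transgenes nor the strain, and they do not say whether LC-DTA mice received the toxin, so genotype and toxin cannot be told apart. Nor do they tell whether each sample was from a different animal, and p-values therefore measure the spread between these samples, which may be technical.

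Beta-defensins are small cationic peptides, folded by disulphide bonds, that damage microbial membranes and attract immune cells. In skin they are made by keratinocytes, some constitutively and some after cytokine signals such as those of the interleukin-17 and interleukin-1 families. Slpi and Lcn2 are made by epithelial cells and by neutrophils, whereas Camp and Ltf are best known as contents of neutrophil granules, which are largely filled while neutrophils mature in the bone marrow.

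The genes for Defb14, Defb4, Defb6 and Defb3 lie in this order on the plus strand of chromosome 8, within 101 kb (GENCODE M21 positions on GRCm38, the build named mm10). Defb14 spans 19194357 to 19195212, Defb4 19198706 to 19201545, Defb6 19225478 to 19228209 and Defb3 19293360 to 19295291. Defb1 lies on the same strand 2481 kb beyond Defb3, from 21776599 to 21795185. Slpi (164354070 to 164389095) and Lcn2 (32384633 to 32388252) are on the minus strand of chromosome 2. On chromosome 9, Camp (109847379 to 109849617) is on the minus strand and Ltf (111019271 to 111042767) on the plus strand. All 9 are protein-coding. Of the transcripts' 50-base stretches, 23 of 405 in Defb4 also occurred in Defb8, and none of the other 8 genes shared any with another gene. The microRNA gene Mir7678 lies within the span of Slpi on the same strand, though the Slpi transcripts shared no such stretch with it. Since the annotation used for counting is not given, how reads there were assigned is not known.

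Promoter sequences in RefSeq (GRCm38.p6) were available for 6 of the 9 genes, without Defb1, Defb4 and Defb14. The 250 bases before the RefSeq start are shown for Defb6, Defb3 and Slpi. Defb6 and Defb3 come from the same stretch of chromosome 8. Among the beta-defensins tested in LC-DTR ears, their croton oil responses were the smallest and the largest. Slpi had the largest response of the set in LC-DTA ears. Capitals mark matches, on either strand, to the NF-kB letters, GGG and CC with any 5 bases between them, or to the C/EBP letters TTNNGNAA. The windows are chr8:19225228-19225477 (plus strand) for Defb6, chr8:19293111-19293360 (plus) for Defb3 and chr2:164356508-164356757 (minus) for Slpi, each written 5′ to 3′ along the gene. The RefSeq starts of Defb6 and Defb3 lie 0 and 1 base from the GENCODE starts. For Slpi it is the start of 1 of 3 GENCODE transcripts, and the span given above begins 32588 bases further upstream, with another transcript, so the window lies within that span but in none of its exons. For Camp the RefSeq start lies 161 bases inside the GENCODE gene, those 161 bases of the window are exon in GENCODE, and the window is not shown.
Defb6: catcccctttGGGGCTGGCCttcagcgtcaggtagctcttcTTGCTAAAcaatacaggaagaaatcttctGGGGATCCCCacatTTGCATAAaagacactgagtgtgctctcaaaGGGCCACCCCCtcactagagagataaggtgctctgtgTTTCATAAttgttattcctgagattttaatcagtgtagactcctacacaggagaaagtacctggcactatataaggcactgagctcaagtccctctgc
Defb3: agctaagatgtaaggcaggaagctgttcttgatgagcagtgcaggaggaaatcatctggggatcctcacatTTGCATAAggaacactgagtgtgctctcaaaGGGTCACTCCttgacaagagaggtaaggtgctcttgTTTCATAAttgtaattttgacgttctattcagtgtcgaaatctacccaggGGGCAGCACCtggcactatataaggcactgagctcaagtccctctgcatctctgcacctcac
Slpi: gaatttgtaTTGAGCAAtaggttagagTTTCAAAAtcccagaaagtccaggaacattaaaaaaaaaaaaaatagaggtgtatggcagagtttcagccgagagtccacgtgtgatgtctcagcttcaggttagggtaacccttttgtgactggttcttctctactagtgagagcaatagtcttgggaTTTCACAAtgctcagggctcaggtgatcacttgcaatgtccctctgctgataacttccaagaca

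The Defb6 and Defb3 windows were alike, with 74.0% identical positions in a global alignment, against 46.0 to 52.4% for every other pair among the 6 promoters. They shared the C/EBP-type matches TTGCATAA and TTTCATAA. These began 166 and 98 bases before the start in Defb6, and 179 and 112 bases before it in Defb3. NF-kB letters were matched 4 times in Defb6, where the last 2 matches overlap, and 2 times in Defb3. Slpi had 3 C/EBP matches and no NF-kB match, Lcn2 had 1 of each, and Ltf had 2 C/EBP matches and 3 overlapping NF-kB matches. Camp held neither. For Lcn2 the RefSeq start lies 513 bases inside the GENCODE gene and is the start of 0 of 6 GENCODE transcripts. All 250 bases of the Lcn2 window lie within the gene and 197 of them are exon, so its matches may not lie in a promoter. None of the 6 windows held the AP-1 letters TGANTCA, the STAT letters TTCNNNGAA or TATAAA. Among 32841 promoter windows of this length, 45.8% held the NF-kB letters, 36.9% those of C/EBP, 6.75% those of AP-1, 7.02% those of STAT and 12.4% TATAAA, so such short matches are frequent. A match describes the letters only.

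Depth is unknown, since TPM keeps no record of read number. Between 13733 and 14332 genes reached 1 TPM in a sample. Markers of keratinocytes summed to between 21958 and 40578 TPM, and the 3 Langerhans cell markers listed to between 413 and 894 TPM. Of these, Cd207 lay between 0.0567 and 1.88 TPM, Epcam, which other epithelial cells also make, between 196 and 610 TPM, and Cd74, which other antigen-presenting cells also make, between 184 and 691 TPM. On the first principal component LC-DTR croton oil replicates 2 and 3 stood at -5.26 and -8.06, away from replicates 1 and 4 at -28.5 and -28.6. On the second component LC-DTR vehicle replicate 3 stood at 5.85, while every other LC-DTR sample was between -35.8 and -10.1 and every LC-DTA sample between 16.5 and 28.5. That ear had the lowest Defb1, Defb6 and Defb14 of the LC-DTR vehicle ears. Its marker sums of fibroblasts, keratinocytes, macrophages, mast cells, sebaceous glands and neutrophils were the highest of that group. Those of T cells, hair follicles and cartilage were the lowest. Results of the set that rest on these groups are mostly given with and without these ears, or as a range over the alternatives. For genes outside the set this was done in part, by counts, and only some of the lost calls are named. The LC-DTR croton oil samples bear consecutive numbers in the labels (10851 to 10854) and the LC-DTR vehicle samples scattered ones (10825, 10968 and 11098), and what these numbers stand for is not given.

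Together the 9 genes took a mean of 0.147% of all TPM in LC-DTA and 0.221% in LC-DTR croton oil ears, and 0.0711% in LC-DTA and 0.117% in LC-DTR vehicle ears. In single samples the share was 0.126 to 0.166% in LC-DTA and 0.165 to 0.270% in LC-DTR croton oil ears, and 0.0685 to 0.0752% in LC-DTA and 0.0895 to 0.134% in LC-DTR vehicle ears. Defb6 alone made up 51.8 to 61.5% of the total of the 9 genes in LC-DTA croton oil ears and 54.8 to 62.3% in LC-DTR croton oil ears, against 80.8 to 82.3% and 75.9 to 81.8% in LC-DTA and LC-DTR vehicle ears. Slpi and Lcn2 together took 19.7 to 30.6% in LC-DTA and 14.2 to 18.1% in LC-DTR croton oil ears, and no more than 4.46% in any vehicle ear. After croton oil Slpi was among the 3 most abundant genes of the set in each ear, while Defb6 and Defb1 were the most abundant pair in each vehicle ear.

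**Figure D1:**
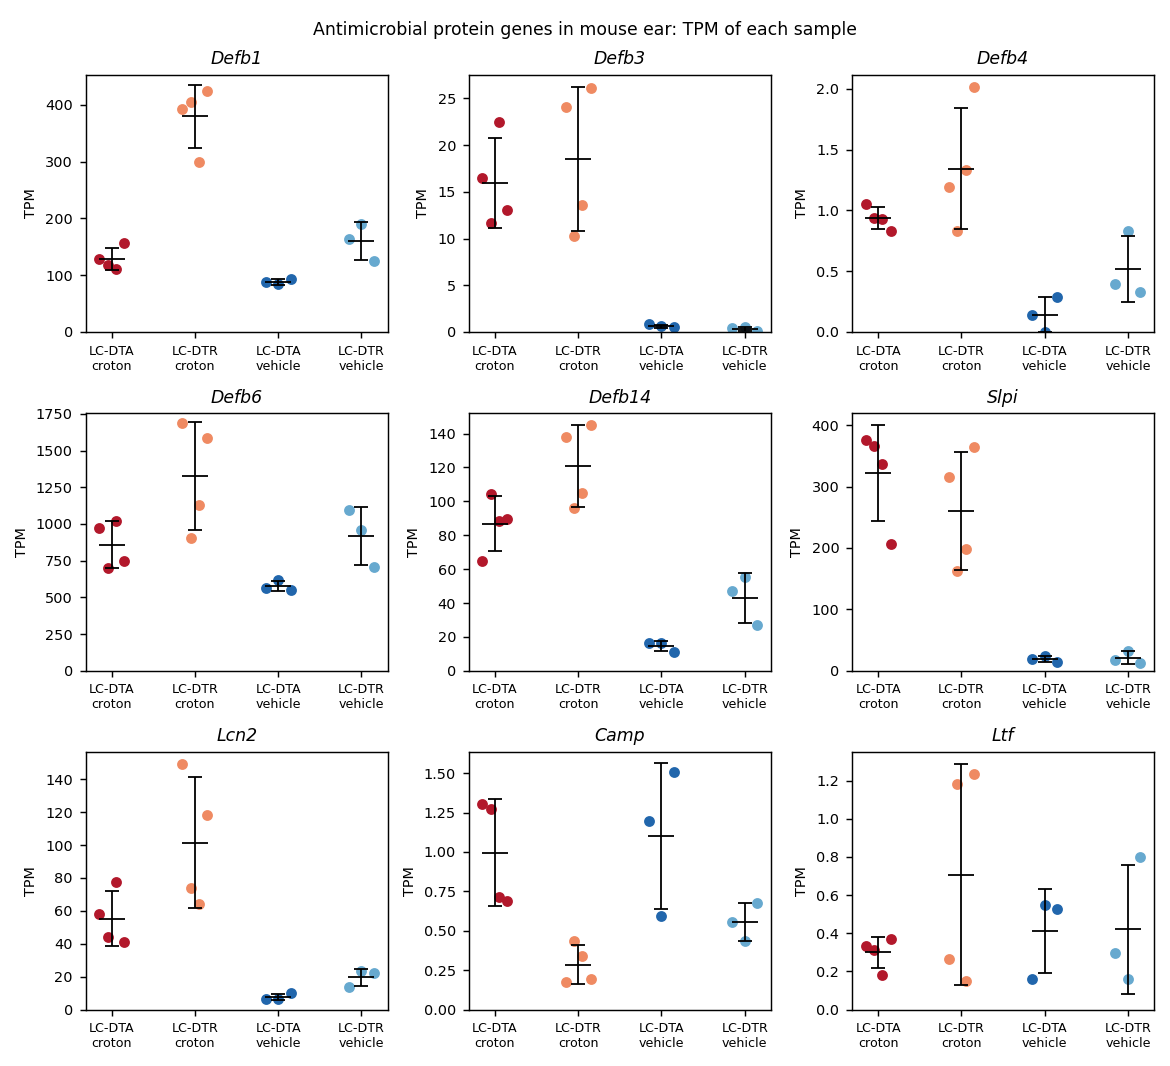
TPM of each of the 9 genes in every sample, with 1 panel and 1 linear axis from 0 per gene. Within a group the points run from replicate 1 on the left to the last replicate on the right, and bars give the mean ± SD of 3 or 4 samples; Slpi and Defb3 lie higher in all 8 croton oil ears than in all 6 vehicle ears, and Camp and Ltf stay below 2 TPM.

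Croton oil was followed by higher levels of most of the set in both genotypes. With limma on log2(TPM + 1) and Benjamini-Hochberg adjustment over all 14693 tested genes, 7 of the 8 tested members rose in LC-DTA ears and 6 of 8 in LC-DTR ears, at an adjusted p under 0.05, and none fell. Over all tested genes, 24.2% were called higher and 34.5% lower in LC-DTA ears (58.7% in all), and 22.1% were called higher and 29.5% lower in LC-DTR ears (51.6% in all). Leaving aside Defb3 and Defb4, 5 of the 6 other tested members rose in LC-DTA ears and 4 of 6 in LC-DTR ears. The median log2 difference of the 8 was 1.63 in LC-DTA and 1.38 in LC-DTR ears, against -0.090 and -0.060 over all tested genes. This log2 scale understates the change of genes with few TPM, and in whole tissue fewer cells of a type and less RNA per cell cannot be told apart. Under vehicle 4 of 8 tested members, Defb1, Defb6, Defb14 and Lcn2, were lower in LC-DTA than in LC-DTR ears and none was higher, against 5.34% of all tested genes called lower and 19.1% called higher. After croton oil, Defb1, Defb6 and Lcn2 were lower and Camp higher in LC-DTA ears, against 18.0% of genes called lower and 34.3% called higher (52.3% in all). The balance of these genotype calls depended on scaling. Under vehicle 2810 genes were called higher and 785 lower as deposited, 1811 and 1537 after rescaling by the median ratio, and 1616 and 1772 after quantile normalization. After croton oil the counts were 5041 higher and 2647 lower as deposited, 3720 and 3702 by the median ratio, and 3740 and 3730 by quantile normalization. The members called between genotypes kept their direction under both scalings.

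Without LC-DTR croton oil replicates 2 and 3, 7 of 8 tested members rose in LC-DTR ears, Defb6 being added. Of all 14693 tested genes 3159 were called higher and 4472 lower in that fit. The log2 differences were then 4.29 for Defb3, 0.77 for Defb4, 1.75 for Defb14, 2.73 for Lcn2 and -0.39 for Camp, which did not pass. Between genotypes after croton oil 5 members were then lower in LC-DTA ears and 1 higher, in place of 3 and 1, Defb3 and Defb14 being added. Of all 14693 tested genes 2047 were lower and 4512 higher in this comparison. Defb6 had a log2 difference of -0.94, Defb1 of -1.67 and Camp of 0.74. Without LC-DTR vehicle replicate 3 the 4 members called under vehicle remained called, at -0.99 for Defb1, -0.83 for Defb6, -1.76 for Defb14 and -1.16 for Lcn2. Over all tested genes 981 were then lower and 2720 higher in LC-DTA vehicle ears. In the same fit 6 of 8 members rose in LC-DTR ears, while over all tested genes 2722 rose and 3784 fell. The members rose by 1.09 for Defb1, 3.67 for Defb3, 0.53 for Defb4, 1.21 for Defb14, 3.28 for Slpi and 2.35 for Lcn2.

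**Figure D2:**
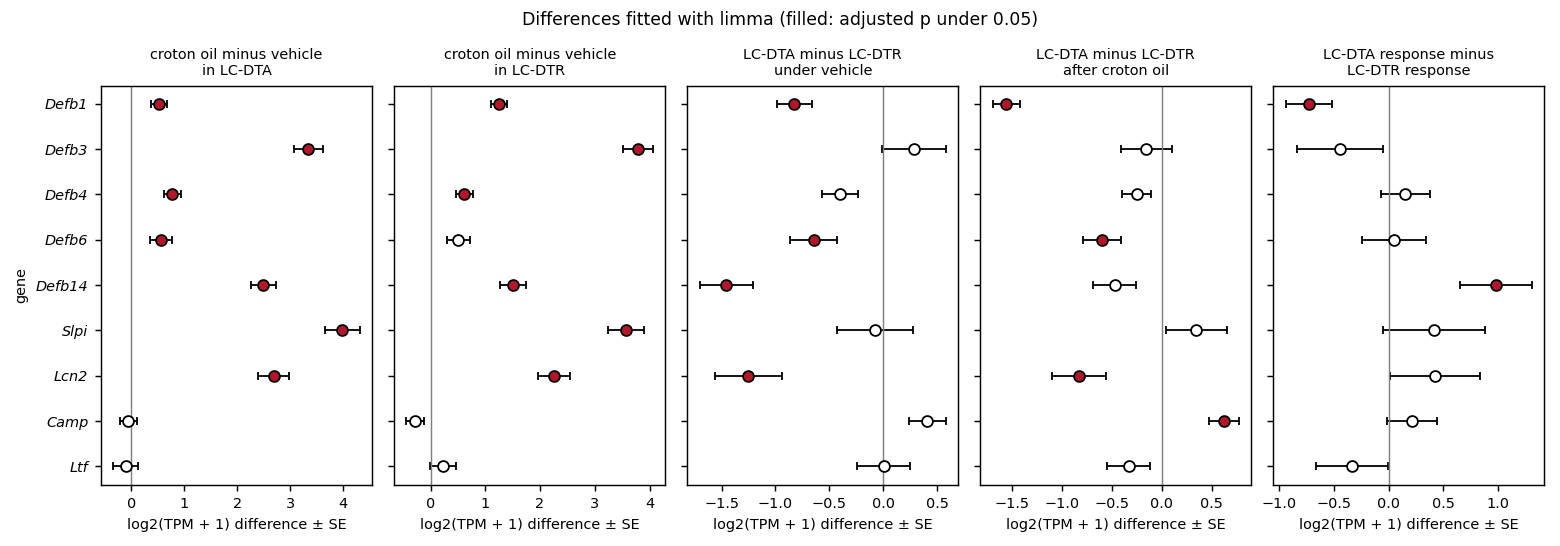
Log2 differences (log2 of TPM + 1) of the 9 genes ± SE in 5 comparisons, with panels for the croton oil response in LC-DTA, the response in LC-DTR, LC-DTA minus LC-DTR under vehicle, LC-DTA minus LC-DTR after croton oil, and the difference of the responses. Filled points have an adjusted p under 0.05 (limma); the responses of Slpi and Defb3 exceed 3 in both genotypes, and the genotype differences of Defb1, Defb6 and Lcn2 are negative under both treatments.

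Defb6 was the most abundant of the 9 genes in every sample. This beta-defensin was described in skeletal muscle and epithelia of mice. In LC-DTA croton oil ears it had 974, 697, 1019.7 and 748 TPM, and in LC-DTR croton oil ears 1685, 906, 1129.7 and 1583 TPM. The vehicle values were 565, 619 and 553 TPM in LC-DTA ears and 1097, 958 and 707 TPM in LC-DTR ears. All LC-DTA croton oil ears lay above all LC-DTA vehicle ears, while LC-DTR croton oil replicate 2 lay below 2 of the 3 LC-DTR vehicle ears. Defb6 rose in LC-DTA ears, by 0.55 ± 0.21 on the log2 scale (limma, adjusted p = 0.0340), a mean of 1.49 times the vehicle level. In LC-DTR ears the difference of 0.50 ± 0.21 did not pass the test (adjusted p = 0.0559). Without LC-DTR croton oil replicates 2 and 3 it was 0.85 ± 0.19 and passed (adjusted p = 0.00253, with a range of 0.00253 to 0.245 over 26 alternatives). The LC-DTA call was lost in 7 of 26 alternatives (adjusted p of 0.00589 to 0.114), among them each in which 1 LC-DTA vehicle ear was left out. Between genotypes Defb6 was lower in LC-DTA ears by a log2 difference of -0.60 ± 0.19 after croton oil (adjusted p = 0.0183) and of -0.65 ± 0.22 under vehicle (adjusted p = 0.0478). The vehicle call was lost in 13 and the croton oil call in 5 of 26 alternatives, with adjusted p up to 0.146 and 0.0604.

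Defb1 was lower in LC-DTA than in LC-DTR ears under both treatments. It encodes a beta-defensin that many epithelia make constitutively. Its TPM were 128, 119, 111 and 157 in LC-DTA croton oil ears and 392, 404, 299 and 425 in LC-DTR croton oil ears. Under vehicle they were 87.6, 83.9 and 94.0 in LC-DTA ears and 163, 191 and 125 in LC-DTR ears. Within each treatment every LC-DTA ear lay below every LC-DTR ear, and the LC-DTA croton oil values overlapped those of LC-DTR vehicle ears. After croton oil the log2 difference between LC-DTA and LC-DTR was -1.56 ± 0.14 (limma, adjusted p = 3.39e-06), a mean ratio of 0.338, and under vehicle it was -0.82 ± 0.16 (adjusted p = 0.00300), a ratio of 0.554. Both calls held in all 26 alternatives. Croton oil was followed by a rise of 0.52 ± 0.15 in LC-DTA ears (adjusted p = 0.00826; ratio 1.45) and of 1.25 ± 0.15 in LC-DTR ears (adjusted p = 2.41e-05; ratio 2.38). The LC-DTR rise was 1.37 ± 0.16 without replicates 2 and 3. The response in LC-DTA ears minus that in LC-DTR ears was -0.73 ± 0.21 (adjusted p = 0.0243), in a comparison in which 10.5% of all tested genes were called higher and 12.6% lower (23.1% in all). It missed the threshold without LC-DTA vehicle replicate 3 (adjusted p = 0.0590) or LC-DTR vehicle replicate 3 (0.0554), within a range of 0.00888 to 0.0590.

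Defb14 differed between genotypes mainly under vehicle. It is the mouse counterpart of human beta-defensin 3, an inducible epithelial peptide. Levels were 64.9, 105, 88.5 and 89.6 TPM in LC-DTA croton oil ears and 138, 95.9, 105 and 145 TPM in LC-DTR croton oil ears. Vehicle ears had 16.2, 16.4 and 11.1 TPM in LC-DTA and 47.3, 55.2 and 26.7 TPM in LC-DTR mice. The vehicle groups did not overlap, each LC-DTA ear being lower, and the croton oil groups did. Defb14 rose by 2.49 ± 0.23 in LC-DTA ears (limma, adjusted p = 2.84e-06), a mean ratio of 5.96, and by 1.51 ± 0.23 in LC-DTR ears (adjusted p = 0.000160), a ratio of 2.81. Under vehicle LC-DTA ears were lower, with a log2 difference of -1.46 ± 0.25 (adjusted p = 0.00152), and after croton oil the difference of -0.47 ± 0.22 did not pass (adjusted p = 0.0803). The difference of the responses was 0.98 ± 0.33 (adjusted p = 0.0449). That call was lost in 15 of 25 alternatives. Without LC-DTR croton oil replicates 2 and 3 it was 0.74 ± 0.35 (adjusted p = 0.152, the highest of a range that began at 0.00756), and Defb14 was then lower in LC-DTA croton oil ears, with a log2 difference of -0.72 ± 0.26 (adjusted p = 0.0389, range 0.0303 to 0.218).

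Defb3 exceeded 10 TPM in each croton oil ear and stayed under 1 TPM in each vehicle ear. It encodes a beta-defensin whose epithelial expression in mice is induced by infection. LC-DTA croton oil ears had 16.5, 11.6, 22.5 and 13.0 TPM and LC-DTR croton oil ears 24.0, 10.3, 13.6 and 26.1 TPM. In vehicle ears it was 0.808, 0.592 and 0.479 TPM in LC-DTA mice and 0.377, 0.499 and 0.132 TPM in LC-DTR mice. The treatments were far apart and the genotypes overlapped under both. Its log2 differences were 3.34 ± 0.28 in LC-DTA ears (limma, adjusted p = 1.55e-06) and 3.78 ± 0.28 in LC-DTR ears (adjusted p = 9.02e-07). Mean TPM were 25.4 times higher in LC-DTA and 55.0 times higher in LC-DTR croton oil ears than in the vehicle ears of that genotype. The response difference of -0.44 ± 0.39 did not pass (adjusted p = 0.433), but it was -0.95 ± 0.29 without LC-DTR croton oil replicates 2 and 3 (adjusted p = 0.0363, range 0.0363 to 0.650). Without those replicates Defb3 was also lower in LC-DTA croton oil ears, with -0.67 ± 0.21 (adjusted p = 0.0227, range 0.0227 to 0.991), against -0.16 ± 0.26 (adjusted p = 0.633) with them.

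Defb4 stayed at the lower end of the scale throughout. It is an inducible beta-defensin, the mouse counterpart of human beta-defensin 2. The LC-DTA croton oil ears had 1.05, 0.938, 0.933 and 0.834 TPM, and the LC-DTR croton oil ears 1.19, 0.828, 1.34 and 2.02 TPM. LC-DTA vehicle ears had 0.142 and 0.288 TPM and 1 listed at 0, and LC-DTR vehicle ears 0.398, 0.833 and 0.326 TPM. In LC-DTA mice the treatments did not overlap, and in LC-DTR mice vehicle replicate 2 reached the lowest croton oil ear. Defb4 rose by 0.77 ± 0.16 in LC-DTA ears (limma, adjusted p = 0.000983) and by 0.62 ± 0.16 in LC-DTR ears (adjusted p = 0.00536). Under vehicle the LC-DTA ears all lay below the LC-DTR ears, but the difference of -0.40 ± 0.17 did not pass (adjusted p = 0.0998). With a pseudocount of 0.1 in place of 1 it did, at -1.46 ± 0.44 (adjusted p = 0.0288, range 0.0288 to 0.363).

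Of the 43 genes named Defb in the table, the other 38 were near or at 0. Of these, 16 were listed at 0 in every sample and 36 stayed below 1 TPM throughout. Defb15 reached 1.18 TPM in 1 sample and Defb5 1.11 TPM. None passed the filter. Within 200 kb of Defb6 there were 9 listed genes outside the set, none above 1.11 TPM, so that Defb14, Defb4, Defb6 and Defb3 included every gene of that interval above this level.

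Slpi had the largest response of the set in LC-DTA ears. It encodes the secretory leukocyte protease inhibitor, which blocks neutrophil elastase and cathepsin G and is itself antimicrobial. TPM were 376, 367, 336 and 207 in LC-DTA croton oil ears and 315, 162, 198 and 365 in LC-DTR croton oil ears. They were 19.7, 24.3 and 13.8 in LC-DTA vehicle ears and 18.1, 32.9 and 13.0 in LC-DTR vehicle ears. Each croton oil ear lay far above each vehicle ear, and the genotypes overlapped under both treatments. Slpi rose by 3.99 ± 0.33 in LC-DTA ears (limma, adjusted p = 1.54e-06), a mean ratio of 16.7, and by 3.57 ± 0.33 in LC-DTR ears (adjusted p = 3.60e-06), a ratio of 12.2. The LC-DTR rise was 4.03 ± 0.34 without replicates 2 and 3. The genotype differences were 0.34 ± 0.30 after croton oil (adjusted p = 0.362) and -0.076 ± 0.35 under vehicle (adjusted p = 0.901), and neither passed. Without replicates 2 and 3 of the LC-DTR croton oil group the first of these turned to -0.12 ± 0.33.

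Lcn2 encodes lipocalin 2, which withholds iron from bacteria by binding their siderophores. In croton oil ears it had 58.3, 44.5, 77.4 and 41.0 TPM in LC-DTA mice and 149, 73.8, 64.5 and 118 TPM in LC-DTR mice. Vehicle ears had 6.28, 6.71 and 9.94 TPM in LC-DTA mice and 13.7, 23.4 and 22.1 TPM in LC-DTR mice. Treatments did not overlap in either genotype, the vehicle groups were apart with LC-DTA lower, and the croton oil groups overlapped in 1 LC-DTA and 2 LC-DTR ears. Its rise was 2.68 ± 0.29 in LC-DTA ears (limma, adjusted p = 7.60e-06; ratio 7.24) and 2.26 ± 0.29 in LC-DTR ears (adjusted p = 4.54e-05; ratio 5.14). Lcn2 was lower in LC-DTA ears under both treatments, with log2 differences of -1.25 ± 0.31 under vehicle (adjusted p = 0.0111) and -0.83 ± 0.27 after croton oil (adjusted p = 0.0201). The croton oil call was lost without any one of 4 ears, LC-DTA replicate 2 or 4 and LC-DTR replicate 1 or 4, and was larger without LC-DTR replicates 2 and 3, at -1.29 ± 0.27 (adjusted p = 0.00242, range 0.00242 to 0.0646). The vehicle call was lost without LC-DTR vehicle replicate 2 (adjusted p = 0.0559, range 0.00477 to 0.0559).

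Camp, the gene of the mouse cathelicidin CRAMP, was near 1 TPM or below. LC-DTA croton oil ears had 1.30, 1.28, 0.713 and 0.690 TPM and LC-DTR croton oil ears 0.173, 0.435, 0.341 and 0.193 TPM. LC-DTA vehicle ears had 1.20, 0.597 and 1.51 TPM and LC-DTR vehicle ears 0.558, 0.436 and 0.676 TPM. After croton oil every LC-DTA ear lay above every LC-DTR ear. Camp was higher in LC-DTA than in LC-DTR croton oil ears by 0.62 ± 0.15 (limma, adjusted p = 0.00324), in the 25 alternatives in which it was tested too. No LC-DTR ear reached 1 TPM, so Camp was tested because of its LC-DTA levels, and this call supports nothing beyond the values themselves. The croton oil differences of -0.064 ± 0.16 in LC-DTA ears (adjusted p = 0.751) and -0.28 ± 0.16 in LC-DTR ears (adjusted p = 0.163) did not pass, nor did the vehicle difference of 0.41 ± 0.17 (adjusted p = 0.0983). Without LC-DTA vehicle replicate 2 the vehicle difference passed, at 0.59 ± 0.16 (adjusted p = 0.0267, range 0.0267 to 0.381).

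Ltf, which encodes lactoferrin, overlapped between all groups. Its TPM were 0.335, 0.313, 0.182 and 0.371 in LC-DTA croton oil ears and 0.265, 1.18, 0.149 and 1.23 in LC-DTR croton oil ears. In LC-DTA vehicle ears they were 0.158, 0.548 and 0.530 and in LC-DTR vehicle ears 0.299, 0.161 and 0.801. The 2 values above 1 TPM were LC-DTR croton oil replicates 2 and 4. In a fit with no filter the croton oil differences were -0.11 ± 0.23 in LC-DTA ears (limma, adjusted p = 0.757) and 0.23 ± 0.23 in LC-DTR ears (adjusted p = 0.499).

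In the order of group means, croton oil groups came first for Defb3, Defb4, Defb14, Slpi and Lcn2, and neighbouring groups of the same treatment overlapped for Defb3 and Slpi. For Defb4, Defb14 and Lcn2 the croton oil groups overlapped while the vehicle groups were apart, LC-DTA being the lowest. Defb1 and Defb6 ran otherwise: the order was LC-DTR croton oil, then LC-DTR vehicle, then LC-DTA croton oil and last LC-DTA vehicle, with the middle groups overlapping. For Camp the LC-DTA groups came above the LC-DTR groups. Of the 9 genes, 7 did not overlap between croton oil and vehicle in LC-DTA ears, all of them higher. In LC-DTR ears 6 did not, 5 higher and Camp lower. Defb3 and Defb4 were among the 7 and Defb3 among the 5, and their separation was partly built into the filter. For Camp the nearest LC-DTR values were 0.4354 TPM after croton oil and 0.4360 TPM under vehicle, and its difference did not pass. Over all tested genes, 26.1% lay wholly higher and 36.9% wholly lower in LC-DTA ears (63.0% in all), and 20.6% and 27.1% in LC-DTR ears (47.7% in all). Between genotypes, 5 of 9 lay wholly lower in LC-DTA vehicle ears, against 11.1% of tested genes, and none wholly higher, against 31.4% (42.5% in all). After croton oil Defb1 lay wholly lower and Camp wholly higher, against 15.7% and 29.6% of tested genes (45.2% in all). Camp had reached 1 TPM in LC-DTA ears alone, so its separation was partly built into the filter too. The comparisons share samples, so their counts are not independent.

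**Figure D3:**
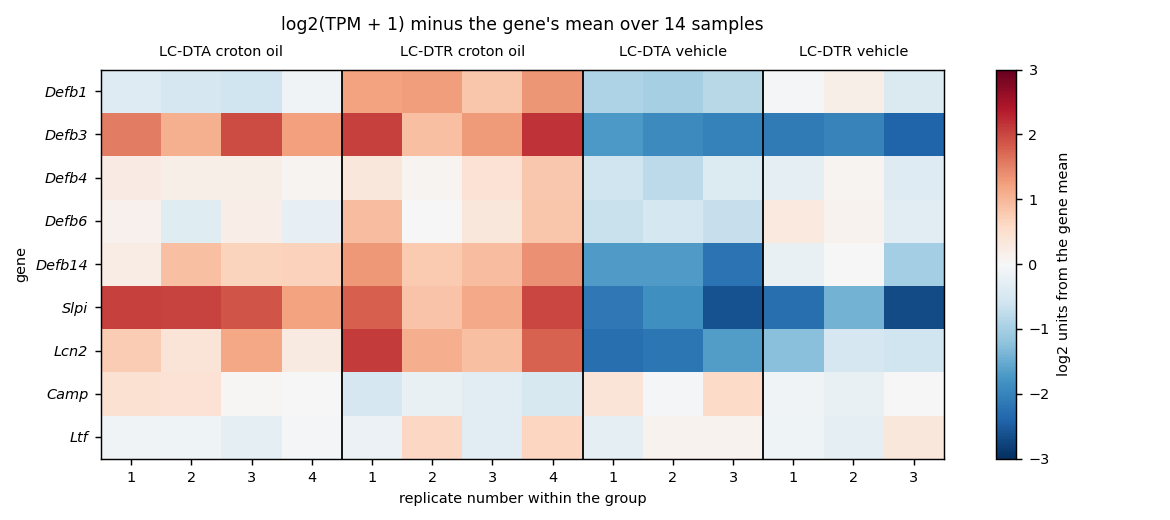
Log2(TPM + 1) of the 9 genes in the 14 samples, each gene centred on its own mean over all samples. Columns are samples by group and rows are genes; Slpi and Defb3 split by treatment alone, Defb1 by genotype as well as treatment, and Camp runs highest in the LC-DTA groups.

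Likeness of pattern was measured as the root mean square difference of log2(TPM + 1), each gene centred on its mean, over the 14 samples. Among the tested members the closest pair was Defb4 and Defb6, at 0.299, and the next was Defb3 and Slpi at 0.400. Defb1 was closest to Defb6 (0.499) and Defb14 to Lcn2 (0.548), and Slpi and Camp were farthest apart (2.03). Defb4 and Defb6 varied little, by 0.422 and 0.484 around their own means, and Slpi by 1.92. Among all tested genes, Sh2d5 was nearest to both Defb3 (0.375) and Slpi (0.393), and Retnlg, a neutrophil transcript, was the second nearest to Defb3 (0.466). Angptl4 was the nearest to Defb14 (0.441) and the second nearest to Lcn2 (0.499), after Stfa2l1 (0.462). Abca4 was nearest to Defb1 (0.243), Macc1 to Defb4 (0.153), Srms to Defb6 (0.210) and Slc5a6 to Camp (0.136). Nfkbia, the inhibitor of NF-kB that NF-kB itself induces, was the third nearest to Defb6 (0.234).

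Neutrophil and keratinocyte transcripts moved with treatment too. The 9 neutrophil markers listed all rose in both genotypes, with a median log2 difference of 2.70 in LC-DTA and 2.26 in LC-DTR ears. Their TPM summed to 467 to 701 in LC-DTA and 269 to 789 in LC-DTR croton oil ears, against 36.7 to 72.4 in LC-DTA and 27.7 to 71.0 in LC-DTR vehicle ears. S100a8 and S100a9, counted again below among other antimicrobial proteins, held a large part of these sums. They had 263 and 370 of the 789 TPM in LC-DTR croton oil replicate 1, and 112 and 153 of the 348 TPM in replicate 2. In LC-DTR croton oil ears the sums were 789, 348, 269 and 744 for replicates 1 to 4. Replicates 2 and 3, which stood apart above, were also the lower ones in Slpi and Defb3. In LC-DTA croton oil ears the sums were 492, 539, 701 and 467 for replicates 1 to 4. There Defb3 was highest in replicate 3, like the sum, while Slpi was highest in replicate 1 and lowest in replicate 4. None of the 9 markers was at 0 throughout. Under vehicle 1 of the 9, Cd177, was higher in LC-DTA ears and none lower, against 19.1% and 5.34% of all tested genes. After croton oil 4 were higher and Retnlg lower, against 34.3% and 18.0%. Cd177 and Trem1 reached 1 TPM in croton oil ears alone, Cd177 in LC-DTA ears alone. Without LC-DTR croton oil replicates 2 and 3 all 9 rose in LC-DTR ears, with a median of 2.60, and 3 were higher and 1 lower between genotypes after croton oil. Of 7 keratinocyte markers 3 rose and 2 fell in LC-DTA ears, against 24.2% and 34.5% of all tested genes. In LC-DTR ears 2 of these markers rose and 4 fell, against 22.1% and 29.5%. Their sums were 25022 to 28219 TPM in LC-DTA and 21958 to 27856 TPM in LC-DTR croton oil ears, against 29192 to 30546 in LC-DTA and 33022 to 40578 in LC-DTR vehicle ears. Under vehicle 2 of the 7, Lor and Trp63, were lower in LC-DTA ears and none was higher, with a median of -0.23. After croton oil 2 of the 7 were higher and 2 lower in LC-DTA ears, with a median of 0.30. All 5 fibroblast markers, 5 listed macrophage markers and 5 mast cell markers were higher in LC-DTA than in LC-DTR vehicle ears, against 19.1% of all tested genes. Without LC-DTR vehicle replicate 3 the mast cell marker Tpsb2 was lost (adjusted p = 0.0612, limma). Fibroblast markers summed to 5181 to 6494 TPM in LC-DTA vehicle ears and to 2586, 1858 and 3555 TPM in LC-DTR vehicle replicates 1 to 3. The part of these cell types in the levels of the 9 genes was not tested.

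The lists that follow are read against the shares over all tested genes. In the croton oil responses 24.2% were called higher and 34.5% lower in LC-DTA ears, and 22.1% and 29.5% in LC-DTR ears. Between genotypes 19.1% were higher and 5.34% lower under vehicle, and 34.3% and 18.0% after croton oil. Taken over the 148 tested genes of the set, the lists and the cell type markers, leaving out LC-DTR croton oil replicates 2 and 3 lost 4 and added 11 calls in the LC-DTR response, with 86 kept, and lost 15 and added 9 between genotypes after croton oil, with 77 kept. Leaving out LC-DTR vehicle replicate 3 lost 8 and added 2 calls in the LC-DTR response, with 82 kept, and lost 6 and added 12 between genotypes under vehicle, with 51 kept.

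Of 18 genes listed as neutrophil granule proteins 12 were tested, though not all encode granule contents and other cells also make some. In LC-DTA ears 8 rose (66.7%) and 1 fell, and in LC-DTR ears 7 rose (58.3%) and 2 fell. The median log2 difference was 1.07 in LC-DTA and 0.62 in LC-DTR ears. Mmp8, the neutrophil collagenase gene, had 0.583 TPM or less in every vehicle ear and passed the filter through croton oil ears alone; without it 7 of 11 rose in LC-DTA and 6 of 11 in LC-DTR ears. Its differences were 2.06 ± 0.19 in LC-DTA and 1.87 ± 0.19 in LC-DTR ears. Ptx3, a soluble pattern recognition receptor, rose by 1.99 ± 0.26 in LC-DTA and 1.64 ± 0.26 in LC-DTR ears (limma, adjusted p = 3.06e-05 and 0.000210). Those that fell were Ctsg, the cathepsin G gene, in both genotypes and Padi4 in LC-DTR ears. The LC-DTR fall of Ctsg was lost without LC-DTR vehicle replicate 3 (adjusted p = 0.0660). Between genotypes 3 of the 12 (25.0%), Cyba, Ctsg and Ptx3, were higher in LC-DTA vehicle ears and none lower. After croton oil 7 (58.3%) were higher and Hp lower in LC-DTA ears, with a median of 0.84, and 6 and 2 without LC-DTR croton oil replicates 2 and 3. Of the 18 genes, 5 stayed below 1 TPM in every sample, namely Mpo, Elane, Ngp, Olfm4 and Bpi. Prtn3 was not tested either, so the counts above leave out these granule genes.

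Of 25 names of other antimicrobial proteins 23 were listed and 17 tested, of which 10 rose (58.8%) and 2 fell in LC-DTA ears and 9 rose (52.9%) and 1 fell in LC-DTR ears, with median log2 differences of 0.78 and 0.50. S100a9, a subunit of calprotectin, which withholds zinc and manganese, had a mean of 245 ± 41.3 TPM in LC-DTA croton oil and 24.9 ± 7.56 in LC-DTA vehicle ears (adjusted p = 3.35e-05, limma). In LC-DTR ears S100a9 had 240.2 ± 129 TPM after croton oil and 27.9 ± 16.1 under vehicle (adjusted p = 9.03e-05). Pglyrp4, a peptidoglycan recognition protein, rose by 0.78 ± 0.08 in LC-DTA ears (adjusted p = 6.17e-06). Ang, a ribonuclease, fell in both genotypes, with log2 differences of -0.97 ± 0.09 in LC-DTA and -0.33 ± 0.09 in LC-DTR ears (adjusted p = 3.34e-06 and 0.00893), and Rnase4 fell in LC-DTA ears. Between genotypes Lyz2, the lysozyme of macrophages and neutrophils, was higher in LC-DTA ears after croton oil, with 1104 ± 128 TPM against 293 ± 25.6 TPM (adjusted p = 7.91e-07). Hamp, the hepcidin gene, had 0.194 ± 0.131 TPM in LC-DTA and 2.14 ± 1.35 TPM in LC-DTR croton oil ears. It reached 1 TPM in the 4 LC-DTR croton oil ears alone, so its call was partly built into the filter. After croton oil 5 of the 17 were higher and 5 lower in LC-DTA ears, 29.4% each way and for the higher ones close to the share over all genes; 4 and 4 were called without LC-DTR croton oil replicates 2 and 3. Under vehicle Lyz2 was higher and Pglyrp3 lower (5.88% each), and 3 and 3 were called without LC-DTR vehicle replicate 3.

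Genes of cytokines and receptors known to induce these peptides mostly rose. Of 31 such genes 28 were tested, and 23 rose (82.1%) and 3 fell in LC-DTA ears and 20 rose (71.4%) and 4 fell in LC-DTR ears, with medians of 0.87 and 0.88. Il17c, Il19 and Il24 reached 1 TPM in croton oil ears alone; without these, 20 of 25 rose in LC-DTA and 17 of 25 in LC-DTR ears. The keratinocyte interleukin-36 gene Il1f6 had 90.9 ± 2.68 TPM in LC-DTA croton oil ears against 32.1 ± 5.46 under vehicle, and 109 ± 2.95 TPM in LC-DTR croton oil ears against 48.6 ± 2.21 (adjusted p = 2.71e-07 and 8.72e-07, limma). Il6 rose by 3.98 ± 0.24 in LC-DTA and 2.94 ± 0.24 in LC-DTR ears (adjusted p = 3.39e-07 and 1.81e-06). The receptor genes Il20ra, Il20rb and Il22ra1 fell in both genotypes and Il17re in LC-DTR ears. The LC-DTR fall of Il20ra was lost without LC-DTR croton oil replicates 2 and 3 (adjusted p = 0.0640) and without LC-DTR vehicle replicate 3 (adjusted p = 0.0747). Il17a and Il22, which encode the cytokines best known for inducing beta-defensins, reached no more than 0.182 and 0.205 TPM in any ear. Il17f, untested like these, had 0.156 to 1.39 TPM in LC-DTA and 0.519 to 2.27 TPM in LC-DTR croton oil ears. In vehicle ears Il17f stayed below 0.49 TPM. Under vehicle 7 of the 28 (25.0%) were higher and 4 (14.3%) lower in LC-DTA ears, and 3 and 7 without LC-DTR vehicle replicate 3. After croton oil 12 (42.9%) were higher and 6 (21.4%) lower in LC-DTA ears, and 8 and 7 without LC-DTR croton oil replicates 2 and 3. The higher ones under vehicle were Hbegf, Osm, Tlr4, Il1r1, Osmr, Il1b and Tlr2, of which the last 4 were lost without LC-DTR vehicle replicate 3. The lower ones were Il1f9, Il1f8, Il1f6 and Il22ra1, among them with log2 differences of -0.81 ± 0.12 for Il1f9 and -0.60 ± 0.09 for Il1f6 (adjusted p = 0.000760 and 0.000942).

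Among 16 tested transcription factors and regulators, 10 rose (62.5%) and 2 fell in LC-DTA ears and 12 rose and none fell in LC-DTR ears, with medians of 0.66 and 0.80. Among those that rose, Cyp27b1 reached 1 TPM in croton oil ears alone. Bcl3, a nuclear partner of NF-kB, rose by 2.82 ± 0.26 in LC-DTA and 2.95 ± 0.26 in LC-DTR ears (adjusted p = 2.60e-06 and 2.59e-06, limma). Cebpd rose by 1.74 ± 0.21 and 2.25 ± 0.21 in the LC-DTA and LC-DTR ears (adjusted p = 1.90e-05 and 4.72e-06). Cebpa and Traf3ip2, the adaptor of the interleukin-17 receptor, fell in LC-DTA ears. Under vehicle 5 (31.2%) were higher in LC-DTA ears and none lower, namely Rela, Bcl3, Nfkb2, Relb and Stat3, and Relb was lost without LC-DTR vehicle replicate 3 (adjusted p = 0.0986). After croton oil 3 (18.8%) were higher and 6 (37.5%) lower in LC-DTA ears, with a median of -0.13, and 3 and 8 without LC-DTR croton oil replicates 2 and 3. The higher ones were Hif1a, Nfkb2 and Bcl3 and the lower ones Cebpa, Traf6, Vdr, Nfkbiz, Zc3h12a and Cebpd.

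Of 28 genes for receptors, binding partners and processing enzymes of these peptides 20 were tested, and 8 rose (40.0%) and 7 fell (35.0%) in LC-DTA ears and 6 rose (30.0%) and 3 fell in LC-DTR ears, with medians near 0 (-0.028 and -0.00087). Fpr1, Fpr2, Klk14 and Hamp reached 1 TPM in croton oil ears alone; without these, 5 rose and 7 fell of 16 in LC-DTA ears and 3 rose and 3 fell in LC-DTR ears. Slc22a17, which encodes a receptor for lipocalin 2, fell, with log2 differences of -1.12 ± 0.10 in LC-DTA and -0.64 ± 0.10 in LC-DTR ears (adjusted p = 2.60e-06 and 0.000206, limma). Fpr2, a receptor through which cathelicidin attracts leukocytes, had 2.72 ± 0.581 TPM in LC-DTA croton oil ears, against 0.160 ± 0.156 under vehicle, and 2.51 ± 1.06 TPM in LC-DTR croton oil ears, against 0.341 ± 0.375. Klk7, a kallikrein protease of the outer epidermis that processes cathelicidin in human skin, rose by 0.82 ± 0.06 in LC-DTA and 0.41 ± 0.06 in LC-DTR ears (adjusted p = 9.32e-07 and 0.000129). Under vehicle 6 of the 20 were higher in LC-DTA ears, namely Trf, Ctsg, Grn, Lrp1, Slc22a17 and Ftl1, and 4 lower, Klk7 and its relatives Klk8, Klk5 and Klk13. Klk13 had 22.5 TPM in LC-DTR vehicle replicate 3, against 5.79 and 6.96 TPM in replicates 1 and 2. After croton oil 6 of the 20 were higher and 7 lower, and 3 and 6 without LC-DTR croton oil replicates 2 and 3. Klk14 reached 1 TPM in LC-DTA ears alone and Hamp in LC-DTR ears alone. A call between genotypes was therefore partly built into the filter for Klk14 and Hamp.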

How the data were processed

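Gene expression was measured in 14 whole ear samples in 4 groups, taken from the labels. The deposited values were TPM, made by the authors, with 1 value per gene and sample. Their sum was 1e+06 in every sample. Library preparation used Illumina's TruSeq Stranded mRNA chemistry, per the labels' protocols. Cutadapt, HISAT2, Subread, featureCounts and the build mm10 are named, without versions, per the submitters' processing notes. Not given in the sources used here are the derivation of TPM from counts, the annotation and the strand setting. Since TPM keep no depth, no counting interval can be given. Every one of the 14 value columns was matched to a sample.

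Of 24062 rows, 27 named as dates (0.124 to 0.145% of the TPM) named no gene and were left out. The 14693 genes with at least 1 TPM in at least 3 samples were fitted as log2(TPM + 1) with limma 3.58.1 in R 4.3.3, with 1 mean for each of the 4 groups, all 14 samples together and a trend of variance with mean. Benjamini-Hochberg adjustment of the two-sided p-values ran over all tested genes of a comparison, with a threshold of 0.05. Differences are the named first group minus the second, ± SE. Ltf values come from the same fit with no filter. The test was tested on simulated data. Further tools were Python 3.11.15, pandas 2.3.3, Biopython 1.88 for promoter alignment and matplotlib 3.10.9.

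The 9 genes, the gene lists and the tests were chosen with earlier results of these data known. All 9 genes are named. Of each list, up to 4 tested genes with the lowest p in a comparison are named, with those called against the majority of the list. For each tested member up to 3 genes with the smallest root mean square difference are named, leaving out Gm and Rik names and members. Promoters are shown for the beta-defensins and for the members with the largest and the smallest croton oil difference, except Camp, whose window is partly exon. Counts without genes that reached 1 TPM on only 1 side of a comparison were made after the values were seen. Motifs were searched in the 250 bases before the start, although a window of 300 bases had been planned. The 26 alternatives changed 1 choice at a time. They used a pseudocount of 0.1 or 5, dropped the filter or raised it to 5 TPM, rescaled the values (median ratio, quantiles), and fitted limma without its trend, robustly, with replicate number as a block, or on the compared groups alone. LC-DTA croton oil replicates 3 and 4 together, LC-DTR croton oil replicates 2 and 3 together, and each of the 14 samples alone were also left out.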

Additional observations from a re-analysis of the deposited data

Results flagged for a closer look

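Defb1 and Defb14 were flagged because their croton oil responses differed between the genotypes by a test of the difference itself. Of 8 tested members 1 was called higher and 1 lower, against 10.5% and 12.6% of all tested genes (23.1% in all). Such calls were thus about as frequent in the set as over all genes. The Defb1 response was smaller in LC-DTA than in LC-DTR ears by a log2 difference of -0.73 (limma, adjusted p = 0.0243), and the Defb14 response was larger in LC-DTA ears by 0.98 (adjusted p = 0.0449). The Defb14 call was lost in 15 of 25 alternatives, among them the fit without LC-DTR croton oil replicates 2 and 3 (adjusted p = 0.152), and the Defb1 call without LC-DTA vehicle replicate 3 (adjusted p = 0.0590) or LC-DTR vehicle replicate 3 (adjusted p = 0.0554). For both genes the LC-DTA vehicle ears lay wholly below the LC-DTR vehicle ears. In the croton oil groups Defb1 remained apart and Defb14 overlapped. None of 18 Dixon tests, on the 9 genes in each of the 2 groups with 4 samples, passed Dixon's 95% critical value.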

How the results depend on the processing

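Over 26 alternatives, 1057 of 1141 values of the 9 genes kept their direction and their side of the threshold, 47 lost and 12 gained a call, and 25 changed sign. No value whose adjusted p was under 0.05 changed sign. Members called in the difference of responses numbered 1 in place of 2 with a pseudocount of 5, with no filter, without the trend, and without LC-DTA croton oil replicates 3 and 4. Leaving out 1 sample gave 2 to 4 members under vehicle, 2 to 5 between genotypes after croton oil and 0 to 2 in the difference of responses. The lowest counts came without LC-DTR vehicle replicate 2 under vehicle, without LC-DTA croton oil replicate 2 or 4 or LC-DTR croton oil replicate 1 or 4 after croton oil, and without LC-DTA vehicle replicate 3 for the responses. All genes called numbered 1780 to 3775 under vehicle, against 3595 with all samples. They were 1780 without LC-DTR vehicle replicate 2 and 2123 without LC-DTA vehicle replicate 3. Between genotypes after croton oil they numbered 6584 to 7923, against 7688 with all samples. For the responses they numbered 2220 to 3575, against 3389, and the 2220 came without LC-DTA vehicle replicate 2.

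The values that changed sign were all uncalled. The Camp response in LC-DTA ears was 0.043 with quantile normalization and 0.15 without LC-DTA croton oil replicates 3 and 4, and ran from -0.25 to 0.076 over single samples left out. The Ltf difference under vehicle was -0.0012 with a pseudocount of 5, -0.024 by the median ratio and -0.076 by quantile normalization, and ran from -0.13 to 0.19. Without LC-DTR croton oil replicates 2 and 3, Slpi after croton oil was -0.12, and the response differences were -0.0055 for Defb4, -0.30 for Defb6, -0.039 for Slpi and -0.042 for Lcn2. Over single samples left out, Slpi under vehicle ran from -0.36 to 0.28, Defb3 between genotypes after croton oil from -0.39 to 0.034, and the Defb6 response difference from -0.12 to 0.23. The cause was not tested.

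The replicate numbers did not pair the samples: 13 pairs of samples with the same number had correlations of -0.29 to 0.13, 2 of them over 0.1, and the samples closest to their own number were 2 of 6 in LC-DTA, 3 of 6 in LC-DTR, 2 of 6 under vehicle and 0 of 8 after croton oil. With the replicate block the members called numbered 7 in LC-DTA, 6 in LC-DTR, 3 under vehicle, where Defb6 was lost, 4 after croton oil and 2 for the responses, and all genes called 7733, 6445, 2879, 7048 and 2660 in that order. Quantile normalization moved the median of all genes under vehicle by -0.11. The fit of the compared groups alone has no value for the difference of responses, and a filter of 5 TPM none for Defb4, Camp or Ltf. Sampling error at low TPM cannot be given, since the depth is unknown.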
